A study of Mus musculus with 19 samples.

Results

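Srebf1 encodes the transcription factor SREBP-1, and the 9 enzyme genes taken with it here make fatty acids and begin their storage. The enzyme genes were Acly, Acaca, Fasn, Me1, Elovl6, Scd1, Scd2, Fads2 and Gpam. Their mRNA was measured in the ventral (VP) and dorsolateral (DLP) lobes of the prostate in mice fed a control diet or one high in fat (HFD). Probe sets that the array's annotation gives to 1 of these genes alone numbered 25 among 45101 on the array. The probe set with the highest mean over the 19 arrays stood for each gene. All 10 genes passed the filter on low values and were among the 11728 genes tested. The genes were proposed with results of these arrays known. Srebf1 was selected on its diet difference here, so its diet values are given as a description with no test.

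SREBP-1 is made as a membrane-bound precursor that must be carried from the endoplasmic reticulum to the Golgi and cut before it can enter the nucleus. Once there it turns on genes of fatty acid synthesis, while the related SREBP-2 acts more on cholesterol synthesis. Transcription of Srebf1 itself is driven by insulin and by the oxysterol-sensing liver X receptors (LXR). In the prostate, androgens raise the same lipogenic enzymes, and FASN is known for its high level in prostate cancer.

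The animals were C57BL/6J mice that were 8 weeks old when they began 12 weeks of unrestricted feeding, with 5 mice on each diet. Control VP had 5 arrays, HFD VP 5, control DLP 5 and HFD DLP 4, and no allele, transgene or drug is named for any group. The sources used here do not give the composition of either diet. They do not say which mouse gave which array either. With 10 control and 9 HFD arrays from 5 mice on each diet, some mice gave more than 1 array, so the arrays are not all independent and the p-values measure the spread between samples.

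Levels are given as log2(x + 1), where x is the signal and the deposited value is taken to be log10(x + 1). On this scale every array has a median of 1.85, and a difference of 1 is a 2-fold change of x + 1. Lobe markers, themselves picked with earlier results known, separated the lobes. Tgm4, a dorsolateral secretory transglutaminase, lay between 12.31 and 12.73 on DLP arrays and between 1.36 and 2.37 on VP arrays. Spink1, a ventral secretory protein, was also high on 3 DLP arrays, at 11.81 on control DLP 2, 10.21 on control DLP 4 and 11.58 on HFD DLP 2. All 7 luminal epithelial markers with a probe set were above the array median on all 19 arrays. Several arrays of both lobes stood apart in markers of other cells. Control VP 4 had the highest summed level of 6 adipocyte markers, 60.1 in units of x against 27.2 to 40.6 on the other VP arrays. In control VP, 2 of the 6 (Fabp4 and Car3) were above the array median on all arrays and 3 on none. On control VP 4, Fabp4 was at 5.43, Car3 at 3.79 and Adipoq at 1.91. HFD VP 3 had the highest summed level of 5 macrophage markers, 342 against 50.1 to 174 on the other VP arrays. HFD VP 2 had a summed level of 6 seminal vesicle markers of 109, against 2.21 to 11.6 on the other VP arrays. Leaving out HFD VP 2 ended the lobe calls of Fasn on the control diet and of Srebf1 on the high fat diet (adjusted p 0.0527 and 0.062) and no other call for these 10 genes. In DLP, nerve and Schwann cell markers summed to 101, 74.5 and 45.9 on control DLP 5, 2 and 4 (others 24.5 to 35.3). Adipocyte markers summed to 46.5 on control DLP 4 (others 17.5 to 32.6) and macrophage markers to 129 on control DLP 1 (others 40.8 to 61.1). Seminal vesicle markers summed to 34.5 on HFD DLP 1 (others 3.37 to 12.1). The part of these cells in the levels of the 10 genes was not tested.

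The promoters shown here share a sequence by which LXR is known to act on Srebf1, and they belong to Srebf1, to the enzyme gene Fasn and to Abca1, a cholesterol exporter and LXR target. The motif searched was GGGTTA, 4 bases of any kind and CGGTCA, on both strands, with letters chosen after the Srebf1 promoter had been read. It is an LXR response element. The capitals mark the match, which in each of these promoters reads on the opposite strand. The sequences are RefSeq's, on GRCm38.p6, 250 bases upstream of a transcription start and read 5′ to 3′ on the gene's own strand. Srebf1 has 3 such starts in the table, and the match lies before the third at chr11:60210472-60210721 on the minus strand. Its probe set does not tell transcripts from these starts apart. Fasn lies at chr11:120824548-120824797 and Abca1 at chr4:53159896-53160145, both on the minus strand.
Srebf1: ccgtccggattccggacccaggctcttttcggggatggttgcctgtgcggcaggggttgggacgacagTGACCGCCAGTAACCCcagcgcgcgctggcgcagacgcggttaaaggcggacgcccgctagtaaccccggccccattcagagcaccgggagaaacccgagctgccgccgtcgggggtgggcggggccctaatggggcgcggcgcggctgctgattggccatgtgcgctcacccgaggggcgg
Fasn: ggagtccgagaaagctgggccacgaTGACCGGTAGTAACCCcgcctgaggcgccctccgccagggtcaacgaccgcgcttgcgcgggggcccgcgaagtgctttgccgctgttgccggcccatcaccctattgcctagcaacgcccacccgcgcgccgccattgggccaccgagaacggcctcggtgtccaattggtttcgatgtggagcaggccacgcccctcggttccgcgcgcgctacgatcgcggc
Abca1: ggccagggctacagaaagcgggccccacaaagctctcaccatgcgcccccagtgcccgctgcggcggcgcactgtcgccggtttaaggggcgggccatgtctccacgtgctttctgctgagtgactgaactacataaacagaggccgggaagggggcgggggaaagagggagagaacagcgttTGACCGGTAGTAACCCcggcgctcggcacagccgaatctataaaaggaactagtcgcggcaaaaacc
The match ends 167 bases before the start in Srebf1, 210 in Fasn and 52 in Abca1. Of 32851 promoters of this length in the table, these 3 hold the motif, or 0.00913%. A match is a description of letters, not a measured site. Of the 10 genes, 8 had promoters in the table, 12 in all, and none of the 12 held the sterol response element letters TCACNCCAC or the E-box CACGTG. Those letters occur on either strand in 1.05% and 6.02% of all promoters. The Abca1 window holds 1 CACGTG. Scd1 and Scd2 had no entry.

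In both lobes the mean level of Srebf1 was higher on the high fat diet, and by more in VP. In control VP its level was 5.16, 5.03, 4.89, 5.25 and 5.19 on arrays 1 to 5, and in HFD VP it was 5.79, 5.68, 5.46, 5.58 and 5.95. Every HFD VP array was above every control VP array. The difference was 0.59 (SE 0.08), or 1.51-fold, with a 95% interval from 0.42 to 0.77. In control DLP the level was 5.28, 5.21, 5.26, 5.38 and 5.33, and in HFD DLP it was 5.53, 5.38, 5.51 and 5.48. These groups do not overlap either, though the lowest HFD DLP array and the highest control DLP array agree to 2 decimals. The DLP difference was 0.18 (SE 0.09), with a 95% interval from -0.0028 to 0.37. Groups without overlap were found in 2.58% of all genes tested in VP and in 3.15% in DLP. Since Srebf1 was selected on its diet difference, these shares and the intervals are no test of its diet response. The diet difference was smaller in DLP than in VP by 0.41 (95% interval of DLP minus VP from -0.67 to -0.15). This did not pass over all genes (limma adjusted p 0.371). It is built from the diet values that Srebf1 was selected on, so it is no test of them either. In bulk tissue, fewer cells of a type and less RNA per cell cannot be told apart, here and in every result that follows.

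**Figure D1:**
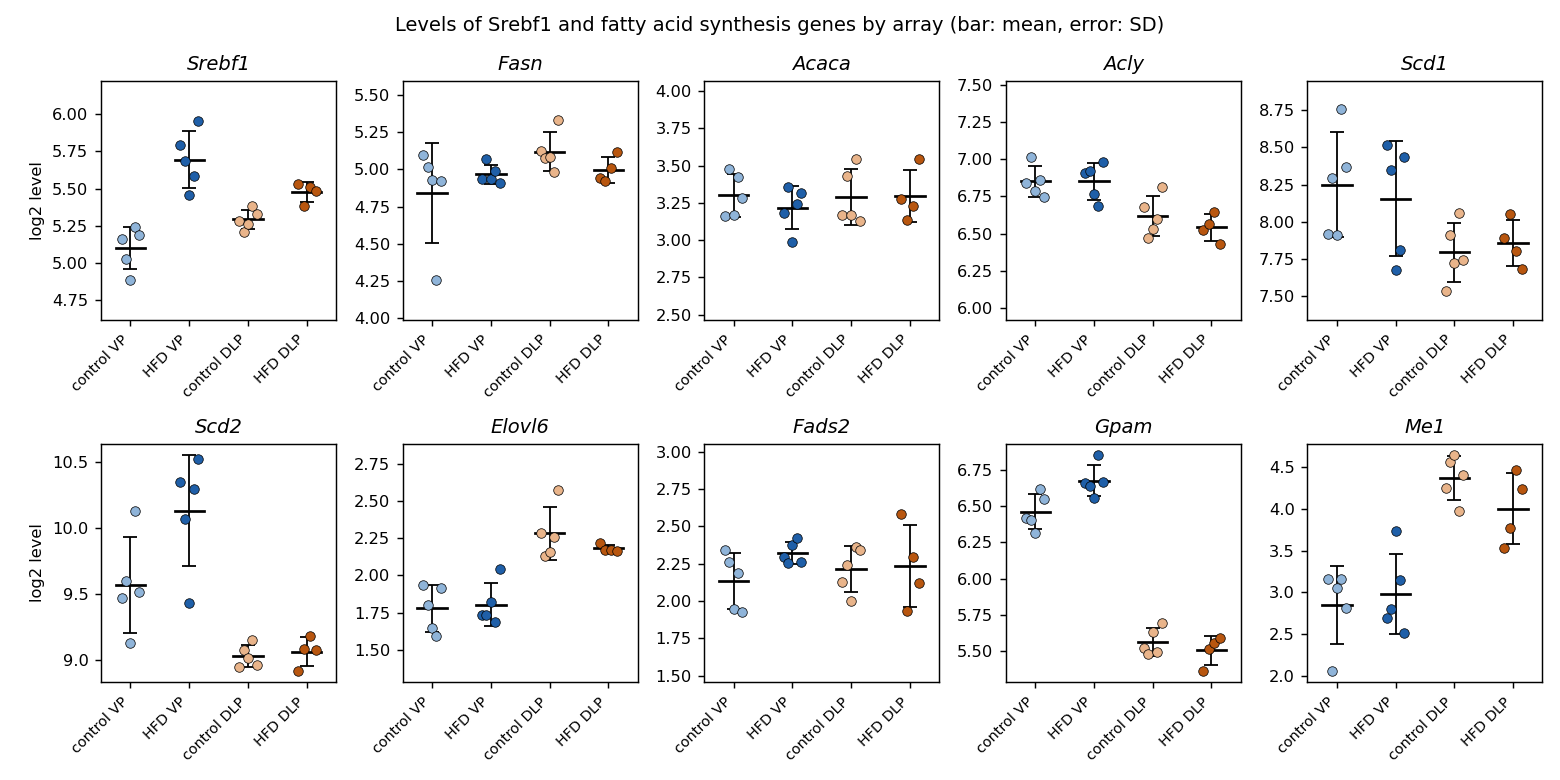
Levels of the 10 genes, as log2(x + 1), on the 19 arrays, with 1 panel per gene and 1 point per array. Bars are group means and error bars are SD over 5 arrays (4 for HFD DLP), and each panel has its own vertical range. Srebf1 is higher in HFD VP (5.46 to 5.95) than in control VP (4.89 to 5.25), Gpam separates the lobes, and Fasn on control VP 4 lies at 4.25.

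None of the 9 enzyme genes passed limma's adjusted threshold of 0.05 for diet in VP, where 1.11% of all genes did. Before adjustment 2 of the 9, Scd2 and Gpam, had p under 0.05, against 15.2% of all genes. The median difference of the 9 was 0.12, against 0.01 over all genes. In the mean 7 of them were higher and 2 lower, and of all 11728 genes 6118 were higher. The 7 include Acly at 0.00 and Elovl6 at 0.03. Other probe sets above the array median on all 19 arrays gave -0.15 and 0.06 for Acly and -0.07 for Me1, while those of Scd1 and Scd2 kept their sign. In DLP none of the 9 passed, and no gene on the array did (0%). Unadjusted p was under 0.05 for 0 of the 9 in DLP and for 5.64% of all genes. The median of the 9 in DLP was -0.06.

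Scd2, a stearoyl-CoA desaturase that puts the first double bond into saturated fatty acids, had the largest diet difference of the enzyme genes in VP. Its level was 9.47, 9.60, 9.12, 10.13 and 9.51 on the control VP arrays and 10.34, 10.06, 9.43, 10.30 and 10.52 on the HFD VP arrays. The groups overlap through 1 array of each, control VP 4 at 10.13 and HFD VP 3 at 9.43. The difference was 0.57 (SE 0.17), or 1.48-fold, with a 95% interval from 0.21 to 0.92, an adjusted p of 0.108 in limma and a two-sided exact permutation p of 0.0794. The smallest p this exact test allows is 0.00794 for 5 against 5 arrays. Without control VP 4 the difference was 0.71 (limma adjusted p 0.0406), without HFD VP 3 it was 0.74 (0.014) and without both it was 0.88 (0.000609). As these arrays make the groups overlap, leaving them out had to widen the difference, so these p-values are no separate evidence. The fit without both was added after seeing the data. Control VP 4 had the highest adipocyte marker sum in VP and HFD VP 3 the highest macrophage marker sum. The part of those cells in the Scd2 values was not tested. The other Scd2 probe sets gave VP differences of 0.51 and 0.14. In DLP the Scd2 level was 8.95, 9.07, 9.01, 9.15 and 8.96 on the control diet and 8.91, 9.08, 9.18 and 9.07 on the high fat diet, and the groups overlap. The DLP difference was 0.03 (95% interval from -0.34 to 0.41, adjusted p 0.997). The diet differences of the lobes differed by -0.53 (adjusted p 0.576). In the fit added after seeing the data, without control VP 4 and HFD VP 3, they differed by -0.85 (adjusted p 0.0402).

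Scd1, the desaturase isoform that dominates in liver and fat, spread widely in VP on both diets. Its control VP levels were 7.92, 8.30, 7.91, 8.75 and 8.37 and its HFD VP levels 8.51, 8.35, 7.67, 7.81 and 8.44. Both groups spread over more than the difference between their means, which was -0.09 (95% interval from -0.45 to 0.26, adjusted p 0.843). The highest value fell on control VP 4 and the lowest on HFD VP 3. In DLP the Scd1 difference was 0.06 (adjusted p 0.996).

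Gpam encodes the mitochondrial acyltransferase that takes the first step from fatty acyl-CoA to triglyceride. Its level was 6.42, 6.40, 6.31, 6.62 and 6.55 in control VP and 6.66, 6.64, 6.56, 6.86 and 6.67 in HFD VP. All but the lowest HFD array were above all control arrays. The difference was 0.22 (SE 0.07, 95% interval from 0.07 to 0.37), with an adjusted p of 0.148 in limma and an exact permutation p of 0.0159. In DLP it was -0.06 (adjusted p 0.996). The other Gpam probe set that passed the filter, above the array median on 10 arrays, differed by 0.20 in VP and by 0.19 in DLP.

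The enzymes of the synthesis chain itself showed small diet differences. Acly, which makes cytosolic acetyl-CoA from citrate, differed by 0.00 in VP (95% interval from -0.16 to 0.16) and by -0.08 in DLP. Acaca, which carboxylates acetyl-CoA to malonyl-CoA in the committed step, differed by -0.08 (95% interval from -0.30 to 0.13) in VP and by 0.01 in DLP. Fasn, the synthase that builds palmitate, differed by 0.12 (95% interval from -0.12 to 0.36) in VP and by -0.12 in DLP. Fasn reached 5.09, 5.02, 4.93, 4.25 and 4.92 in control VP against 4.93, 5.07, 4.93, 4.99 and 4.91 in HFD VP. The lowest value fell on control VP 4, and without that array the difference was -0.02 (adjusted p 0.912).

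The remaining enzymes elongate, desaturate or supply reducing power. Elovl6, which lengthens palmitate to stearate, differed by 0.03 in VP and by -0.10 in DLP. Fads2, the delta-6 desaturase of polyunsaturated fatty acids, differed by 0.19 (95% interval from -0.06 to 0.43) in VP and by 0.02 in DLP. Me1, the cytosolic malic enzyme that yields NADPH, differed by 0.13 in VP and by -0.37 in DLP, the latter with a 95% interval from -0.89 to 0.16. Adjusted p-values of these 3 genes were 0.464 or more in VP and 0.978 or more in DLP, from limma. Averaged over both lobes, again none of the 9 passed, against 0.119% of all genes. For the difference between the lobes' diet effects none of the 9 passed, against 0.00853% of all genes, and 2 of the 9 (Scd2 and Gpam) had unadjusted p under 0.05, against 8.45%. For Gpam this rests on the chosen probe set.

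**Figure D2:**
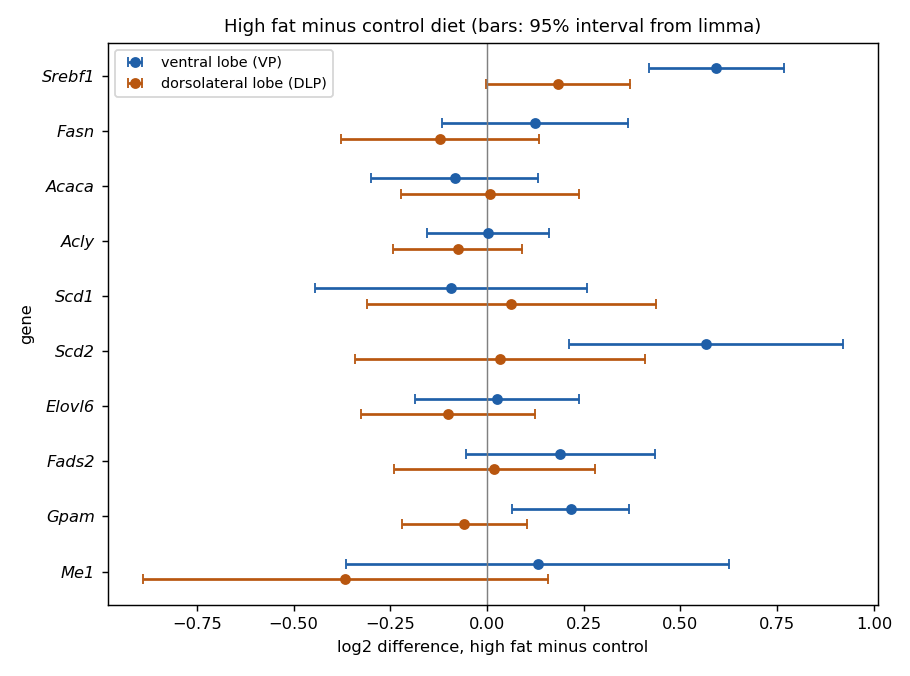
Diet difference of each gene, high fat minus control, on the log2(x + 1) scale in VP and DLP, with 95% intervals from limma. The VP interval of Srebf1, which was selected on its diet difference, runs from 0.42 to 0.77, and that of Scd2 from 0.21 to 0.92. Those of Fasn, Acaca, Acly, Scd1, Elovl6, Fads2 and Me1 include 0.

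More of these genes passed the test between lobes than between diets. On the control diet 7 of the 10 differed between DLP and VP at an adjusted p under 0.05 in limma, where 55% of all genes did. Of these, 3 were higher in DLP (Me1, Elovl6, Fasn) and 4 lower (Gpam, Scd2, Scd1, Acly), against 28.2% and 26.8% of all genes. On the high fat diet 6 of the 10 differed, against 52.9% of all genes, 2 higher (26.8% of all genes) and 4 lower (26.1%). The same 5 genes (Gpam, Scd2, Acly, Me1 and Elovl6) passed on both diets, each in 1 direction with the probe sets used. Elovl6 passed the filter on low values only through DLP, and without it the counts were 6 of 9 and 5 of 9. With another probe set for Acly the split became 4 higher and 3 lower on the control diet and 3 and 3 on the high fat diet. Markers of other cell types also differed between the lobes. On the control diet 4 of 4 basal epithelial and 4 of 6 smooth muscle markers were higher in DLP, while 4 of 7 luminal epithelial markers were lower and 1 higher and 2 of 5 macrophage markers were lower. Their part in the lobe differences was not tested. The comparisons on the 2 diets share no array. The lobes did not overlap for 3 of the 10 on the control diet (Gpam, Me1 and Elovl6), against 39.3% of all genes, and for 4 on the high fat diet (Gpam, Scd2, Acly and Elovl6), against 44.4%.

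Gpam was lower in DLP with no overlap. Its levels there were 5.52, 5.47, 5.63, 5.49 and 5.69 on the control diet and 5.36, 5.51, 5.55 and 5.59 on the high fat diet, all below the lowest VP array at 6.31. The DLP minus VP difference was -0.90 (SE 0.07, adjusted p 2.62e-09), or 1.87-fold lower, on the control diet and -1.18 (SE 0.08, adjusted p 1.29e-10), or 2.26-fold lower, on the high fat diet. The 3 DLP arrays with high Spink1 had Gpam at 5.47, 5.49 and 5.51, within the range of the other DLP arrays. Scd2 was lower in DLP by 0.54 on the control diet (DLP minus VP -0.54, SE 0.17, adjusted p 0.0107) and by 2.10-fold on the high fat diet (-1.07, SE 0.18, adjusted p 4.64e-05). On the control diet the lowest VP array, at 9.12, overlapped the DLP range. Its other probe sets gave differences of -0.93 and -0.54 on the control diet and -1.49 and -0.75 on the high fat diet.

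Me1 and Elovl6 went the other way. Me1 was 3.16, 2.05, 3.05, 3.16 and 2.81 in control VP and 4.25, 4.56, 4.65, 3.98 and 4.40 in control DLP. Every control DLP array was above every control VP array, with a difference of 1.52 (SE 0.24, adjusted p 1.85e-05), or 2.87-fold. On the high fat diet Me1 was 2.70, 2.81, 3.73, 3.15 and 2.51 in VP and 3.53, 3.78, 4.46 and 4.24 in DLP. Those groups overlap, and the difference was 1.03 (SE 0.25, adjusted p 0.00189). Elovl6 was 2.13 to 2.57 in control DLP and 1.59 to 1.94 in control VP, and 2.17 to 2.21 in HFD DLP against 1.69 to 2.05 in HFD VP. Its differences were 0.50 (adjusted p 0.000326) and 0.38 (adjusted p 0.0062). In VP it was above the array median on 2 of 5 control arrays and 1 of 5 HFD arrays, and a gene that passes the filter through 1 lobe in this way had to differ.

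Acly, Scd1 and Fasn carried lobe calls that rest on a choice of probe set or array. The chosen Acly probe set was lower in DLP on both diets, by -0.23 (adjusted p 0.0128) and -0.31 (adjusted p 0.00282). Another Acly probe set, also above the median on 19 of 19 arrays, was higher in DLP on both diets, by 0.46 (adjusted p 4.56e-06) and 0.42 (adjusted p 2.94e-05). That set has the suffix given to probe sets that can share probes with other transcripts. A further Acly set, also above the median on 19 of 19 arrays, differed by 0.04 and -0.05. The mean over the gene's probe sets differed by 0.09 and 0.02, so the lobe direction of Acly is not settled. Scd1 was lower in DLP by -0.46 (adjusted p 0.0276) on the control diet and did not pass on the high fat diet (-0.30, adjusted p 0.169). It lost the control call without control VP 4 (-0.33, adjusted p 0.0909), and also without control VP 5 or control DLP 1, 3 or 5, with adjusted p-values from 0.0505 to 0.0731. Fasn was higher in DLP by 0.28 (adjusted p 0.0493) on the control diet, from levels of 5.12, 5.07, 5.08, 4.98 and 5.33 in DLP. The call was lost in most of the alternatives, with 0.13 (adjusted p 0.133) without control VP 4 and 0.22 (adjusted p 0.13) without control DLP 5. On the high fat diet the Fasn difference was 0.03. Acaca and Fads2 did not pass on either diet, with differences from -0.09 to 0.08.

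Srebf1 itself had opposite signs between the lobes on the 2 diets. DLP was above VP by 0.19 (SE 0.08, adjusted p 0.0598) on the control diet. It was below VP by 0.22 on the high fat diet (DLP minus VP -0.22, SE 0.09, adjusted p 0.0452). The second call held in 7 of the 19 fits that each left out 1 array and was lost in the rest. The loss was largest without HFD VP 5 (-0.15, adjusted p 0.137) and HFD DLP 2 (-0.19, adjusted p 0.123). The Srebf1 diet values described above enter this comparison, so it is no separate evidence of them.

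**Figure D3:**
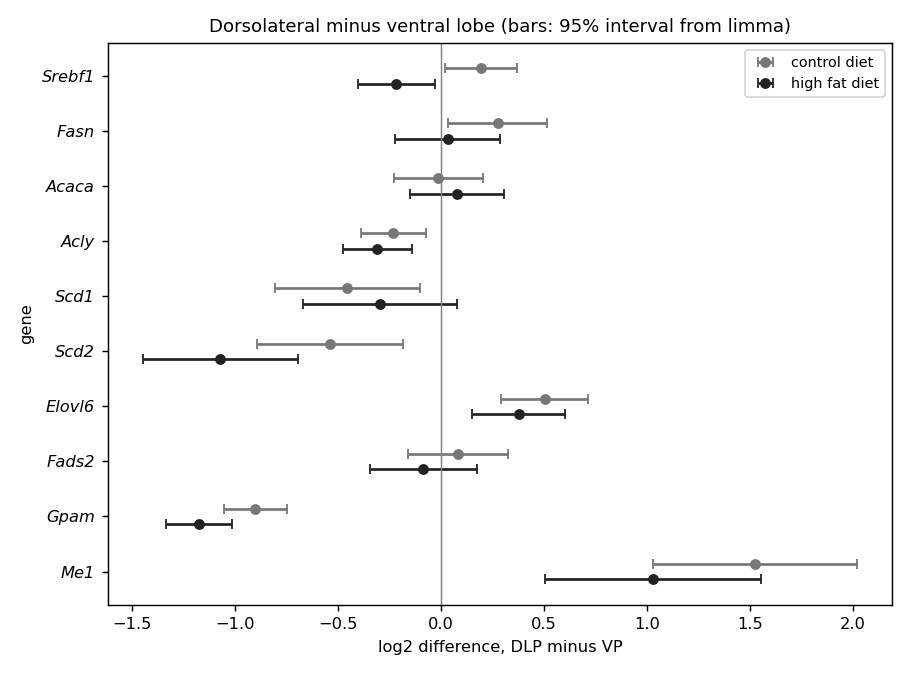
Lobe difference of each gene, DLP minus VP, on the log2(x + 1) scale on each diet, with 95% intervals from limma. Gpam and Scd2 lie below 0 and Me1 and Elovl6 above 0 on both diets, while Srebf1 lies above 0 on the control diet (0.19) and below 0 on the high fat diet (-0.22). Acly is drawn for its chosen probe set, and another of its probe sets has the opposite sign.

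Within groups, Scd2 and Scd1 tracked Srebf1 most closely of the 9 enzyme genes. Each array's deviation from its group mean was compared between Srebf1 and each enzyme gene over 19 arrays, which makes 9 relations. Scd2 had a Pearson r of 0.744 (permutation p 0.011) and a Spearman rho of 0.449 (permutation p 0.116). Scd1 had an r of 0.661 (permutation p 0.024) and a rho of 0.647 (permutation p 0.0242). Of 11727 genes, 0.512% had an r at least as high as that of Scd2 and 1.71% at least as high as that of Scd1. In limma, with Srebf1 as a covariate, the slopes were 1.68 (SE 0.37, adjusted p 0.0567 over all genes) for Scd2 and 1.49 (adjusted p 0.119) for Scd1. None of the 9 passed, against 0.298% of all genes, and Scd2 passed in 3 of the fits that left out 1 array (control VP 1, control VP 2 or HFD VP 4).

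The positive r of both genes came from the VP arrays. Over the 10 VP arrays r was 0.813 (permutation p 0.0103) for Scd2 and 0.78 (permutation p 0.0179) for Scd1. Over the 9 DLP arrays it was -0.00857 and -0.0307, where Srebf1 deviated by no more than 0.0942 in size, against up to 0.26 in VP. The difference between the lobes' correlations was not tested. Leaving out HFD VP 5 and HFD VP 3, the arrays farthest from the median in Srebf1, r fell to 0.574 (permutation p 0.118) for Scd2 and 0.548 (permutation p 0.0911) for Scd1. The relation passed a permutation p of 0.05 only with those arrays, and over the narrower range without them r stayed positive. Without control VP 4, r was 0.72 (permutation p 0.0239) for Scd2 and 0.612 (permutation p 0.0548) for Scd1.

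The other enzyme genes had weaker links. Elovl6, Acly, Acaca, Gpam and Fads2 had r between 0.18 and 0.404, and Fasn and Me1 had -0.268 and -0.375, with permutation p of 0.124 or more. Without control VP 4, r was 0.596 (permutation p 0.0181) for Elovl6 and 0.0231 for Fasn. Fads2 had an r of 0.722 (permutation p 0.0425) over the 9 DLP arrays and -0.0392 over the 10 VP arrays. The 7 luminal epithelial markers had a median r of -0.574 with Srebf1 within groups, and 0 of the 7 passed, against 0.298% of all genes. Their part in these links was not tested.

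**Figure D4:**
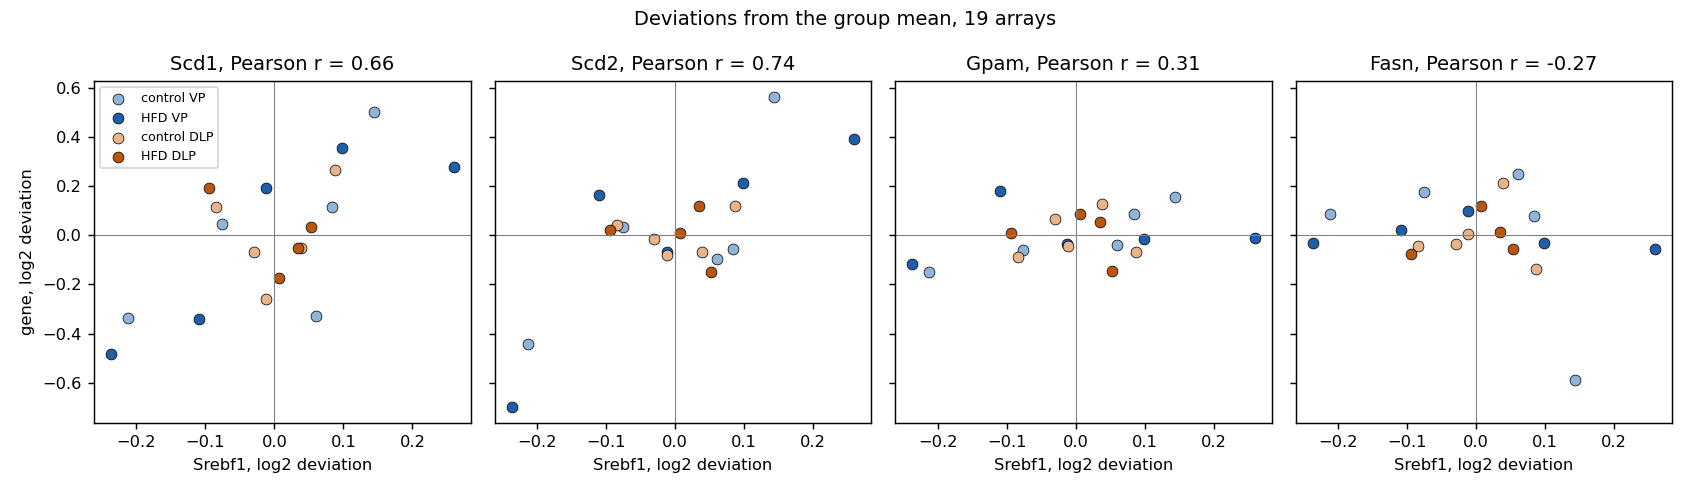
Deviation of Scd1, Scd2, Gpam and Fasn from the group mean against that of Srebf1, both as log2(x + 1), 1 point per array over 19 arrays. Scd1 (r = 0.66) and Scd2 (r = 0.74) rise with Srebf1 along the VP arrays, while the DLP arrays cluster near 0 on the horizontal axis, and Fasn on control VP 4 lies apart at the lower right.

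The genes most like Srebf1 over the 19 deviations were Abca5 (r = 0.889), Agr2 (0.887), Edn2 (0.866), Pomgnt1 (0.865) and Gnmt (0.852). Those most opposed were Aurka (-0.89), Nusap1 (-0.864), Klf10 (-0.842), Smc4 (-0.831) and Fam234b (-0.821). Their limma adjusted p-values for the slope ran from 0.0112 to 0.046. Without control VP 3, however, 0 genes on the array passed, against 35 with it. Over the 9 DLP arrays r was 0.867 for Abca5, 0.816 for Agr2 and -0.79 for Nusap1. None of these 10 correlated genes passed for diet in either lobe, against 1.11% of all genes in VP and 0% in DLP. Abca5, Agr2 and Gnmt were higher in DLP on both diets, where 28.2% of all genes were on the control diet and 26.8% on the high fat diet. Edn2 was lower in DLP on both, by -0.50 (adjusted p 0.00743) and -0.46 (adjusted p 0.0185), as were 26.8% and 26.1% of all genes.

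Genes that process SREBP showed no call for diet, and some were lower in DLP. Of 7 tested genes of this list, 0 passed for diet in VP or DLP, where 1.11% and 0% of all genes did. Their medians were -0.02 and -0.17, against 0.01 over all genes in both lobes. Between lobes, 3 were lower in DLP on the control diet (26.8% of all genes were) and the same 3 on the high fat diet (26.1%). Scap, the escort protein that carries SREBP to the Golgi, differed by -1.11 and -1.29 (adjusted p 1.76e-06 and 5.75e-07). Insig2, which holds that complex back, differed by -0.91 and -1.06. Fbxw7, a ubiquitin ligase component that marks nuclear SREBP for destruction, differed by -0.57 and -0.62. Srebf2, the gene of SREBP-2, did not pass in either lobe or on either diet, with a VP diet difference of -0.10.

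Of 9 tested upstream regulators of lipogenesis, 0 passed for diet in either lobe, against 1.11% of all genes in VP and 0% in DLP. Their medians were 0.09 in VP and -0.03 in DLP. Mid1ip1, a small protein that helps acetyl-CoA carboxylase assemble, had a VP difference of 0.41 (adjusted p 0.0909) and was lower in DLP on the high fat diet by -0.41 (adjusted p 0.00857). Ppargc1b, a coactivator of SREBP-1, was higher in DLP on the control diet by 0.42 (adjusted p 0.017), as was Usf1, an E-box factor of the Fasn promoter, by 0.33 (adjusted p 0.0412). Usf2, its partner, was lower in DLP on the high fat diet by -0.29 (adjusted p 0.0391).

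The wider set of fatty acid and triglyceride synthesis genes held 29 tested genes. Of these, 0 passed for diet in either lobe, against 1.11% of all genes in VP and 0% in DLP. Their medians were 0.04 in VP and 0.00 in DLP. Agpat3, a later acyltransferase of glycerolipid synthesis, came nearest in VP with -0.34 (adjusted p 0.068). Between lobes on the control diet 11 were higher in DLP and 9 lower, against 28.2% and 26.8% of all genes. Acsl3, an acyl-CoA synthetase of lipid droplets, was higher by 1.66 (adjusted p 4.69e-09), while Hacd2 and Hsd17b12, both enzymes of the elongation cycle, were lower by -0.91 and -0.72. On the high fat diet the counts were 11 higher and 8 lower, against 26.8% and 26.1%. Of 5 tested genes of cytosolic NADPH supply, 0 passed for diet in either lobe, against 1.11% of all genes in VP and 0% in DLP. Tkt, a transketolase, had the largest VP difference of the 5 at 0.58 (adjusted p 0.282). Its control VP levels ran from 6.18 to 8.12 with a median of 7.91, and its HFD VP levels from 8.05 to 8.26. On the control diet Pgls, of the pentose phosphate pathway, was higher in DLP by 0.63 and Pgd and Taldo1 were lower by -0.19 and -0.40.

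The LXR target list was the only one of these 6 pathway lists with a gene that passed for diet. As the lists were chosen with earlier results of these data known, this contrast between lists is no test. In VP 2 of 8 passed, both higher (0.529% of all genes were higher), and the list median was 0.28. Mylip, a ubiquitin ligase that targets the LDL receptor, was 7.63, 8.03, 7.94, 7.91 and 7.79 in control VP and 8.26, 8.63, 8.43, 8.86 and 8.69 in HFD VP. The groups do not overlap, and the difference was 0.71 (SE 0.11, adjusted p 0.00522). Abca1, which exports cholesterol from the cell, was 6.21, 5.78, 6.05, 6.55 and 6.20 in control VP and 6.50, 6.59, 7.39, 6.96 and 6.69 in HFD VP, with a difference of 0.67 (SE 0.15, adjusted p 0.0339). Its groups overlap at 1 array of each, and its highest array was HFD VP 3, that of the highest macrophage marker sum. Without HFD VP 3 the Abca1 difference was 0.53 (adjusted p 0.0504), and leaving out control VP 2, 3 or 5 or HFD VP 4 or 5 also ended its call (adjusted p 0.0511 to 0.0699). When VP arrays were fitted alone, the adjusted p was 0.133 for Mylip and 0.24 for Abca1, and no gene on the array passed. Abca1 also lost its call with the mean of its probe sets (0.50, adjusted p 0.104) and with 1 weight per lobe (adjusted p 0.0911).

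In DLP 0 of the 8 LXR targets passed, against 0% of all genes. The DLP differences were 0.25 for Mylip and 0.20 for Abca1, and the tests of the lobes' difference gave adjusted p-values of 0.462 and 0.569. Mylip was also 2.16 lower in DLP on the control diet (DLP minus VP -2.16, adjusted p 5.07e-12). Within groups, neither Mylip nor Abca1 was linked with Srebf1 at an adjusted p under 0.05 (0.736 and 0.754), and the median r of the 8 targets was -0.224.

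Genes of cholesterol synthesis and uptake, the main targets of SREBP-2, had medians of -0.08 in VP and -0.20 in DLP over 18 tested genes. Of the 18, 0 passed for diet in either lobe, against 1.11% of all genes in VP and 0% in DLP. In DLP 16 of the 18 were lower in the mean on the high fat diet, against 46.3% of all genes, and 7 had unadjusted p under 0.05, against 5.64%. Between lobes 9 were lower and 1 higher in DLP on the control diet, against 26.8% and 28.2% of all genes. On the high fat diet 12 were lower and 1 higher, against 26.1% and 26.8%. Sc5d, a late enzyme of cholesterol synthesis, differed by -1.61 and -1.87, and Idi1, an early isoprenoid isomerase, by -1.10 and -1.27.

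**Figure D5:**
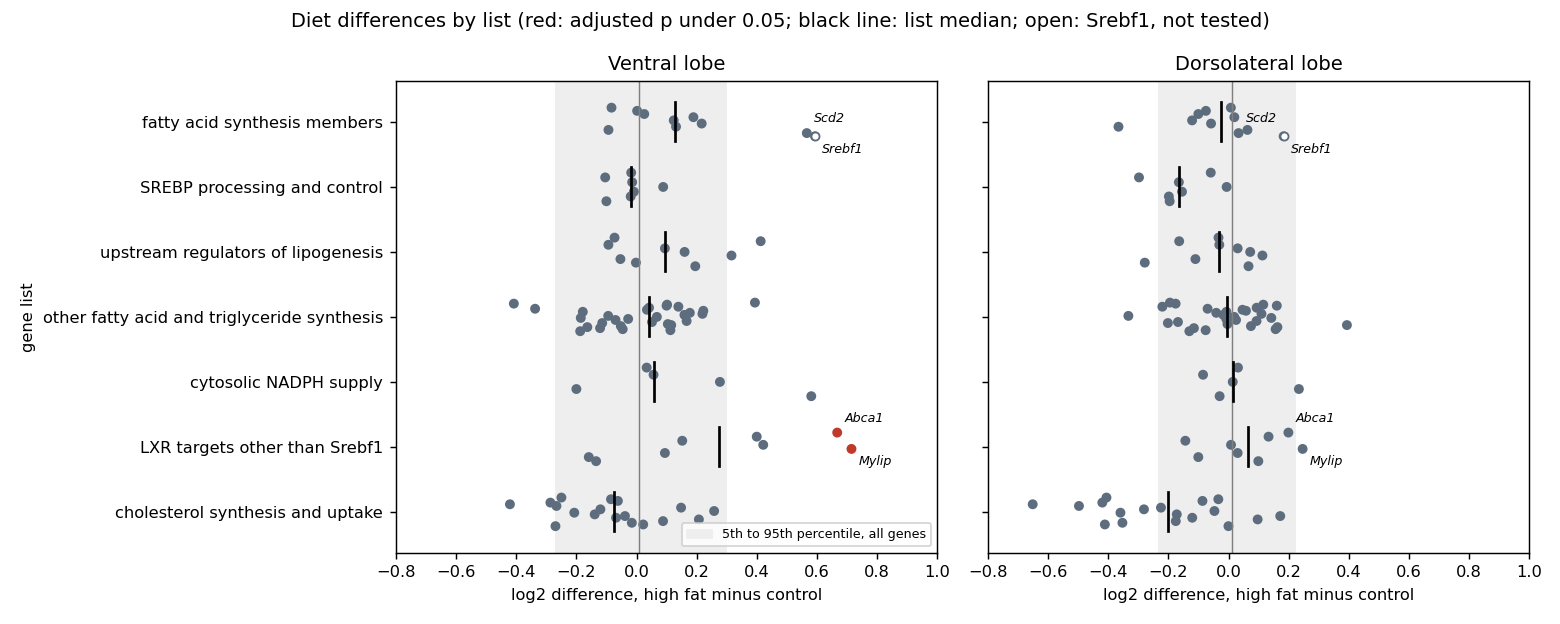
Diet difference of every tested gene of the 7 lists in VP and DLP, on the log2(x + 1) scale, 1 point per gene. The black line is the list median (for the first list with Srebf1 included), the shaded band is the 5th to 95th percentile of all 11728 genes, red marks adjusted p under 0.05, and the open point is Srebf1, which was not tested. Mylip (0.71) and Abca1 (0.67) in VP are the points past the threshold.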

How the data were processed

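RNA of VP and DLP lobes was hybridised to an Affymetrix 3′ array, 1 sample per array. The deposited values were logarithmic, and ran from 0 to 3.99. The submitters' processing notes name MAS5. All 19 arrays hold the same set of values once sorted, so a value reflects rank, and a shift common to most genes cannot be seen. The sources used here do not give the step that did this. The log10 base of the deposited values was inferred from the hybridization controls bioB, bioC, bioD and cre, which rose by 0.50, 0.62 and 0.99 between neighbours. The offset of 1 in the deposited logarithm was also inferred and is not stated in the sources. Folds rest on that base and offset.

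Values became log2(x + 1). Of 45101 probe sets, 64 controls were left out, 34958 had 1 symbol, 932 several and 9211 none. Symbols of 34754 were updated through RefSeq identifiers. Probe sets above their array's median on at least 4 arrays were kept, and the highest mean stood for each of 11728 genes. limma 3.58.1 in R 4.3.3 (lmFit, eBayes with a mean-dependent prior) fitted 4 group means to all 19 arrays. Adjusted p-values are two-sided, Benjamini-Hochberg over all genes, at a threshold of 0.05, including those in the text with no tool beside them. The link with Srebf1 came from a separate limma fit, with the Srebf1 level as a covariate beside the 4 group means. Its slope was tested for every other gene. The diet and lobe differences were not adjusted for Srebf1. Correlations used 100000 shuffles within groups. The fit was tested on simulated data. The number of arrays limits the precision.

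The genes, lists and tests were chosen with earlier results of these data known. Named genes were the 10 studied, up to 4 of each pathway list past the threshold (otherwise 2), and the 5 most and 5 least correlated with Srebf1. List genes without a tested probe set were not analysed here. Alternatives covered offset, filter, probe set, variance prior, array weights, replicate block, 1 lobe alone, cyclic loess and each array left out. A fit with 1 weight per lobe and one without control VP 4 and HFD VP 3 were added after seeing the data.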

Additional observations from a re-analysis of the deposited data

Results flagged for a closer look

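Of 40 groups of values of the 10 genes, 2 held an array set apart from the rest of its group, and chance alone sets apart about 1 group in 20. Fasn on control VP 4 was at 4.25 against 4.92 to 5.09 on the other 4 control VP arrays, with the gap taking 0.793 of the range. Elovl6 on HFD DLP 1 was at 2.21 while the other 3 HFD DLP arrays were all at 2.17, with the gap taking 0.842 of a narrow range.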

How the results depend on the processing

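Among the 9 enzyme genes, 0 passed for diet in VP, in DLP, averaged over lobes or for the difference between lobes, except as follows. In VP the count was 1 (Scd2) with array weights (0.78, adjusted p 0.0162) and 0 to 1 when each array was left out. Without control VP 4 and HFD VP 3 the counts were 1 in VP, 1 averaged over lobes (0.46, adjusted p 0.00959) and 1 for the difference between lobes, Scd2 each time. That fit was added after seeing the data and leaves out the arrays that make the Scd2 groups overlap in VP. For the link with Srebf1 the count was 0, and 0 to 1 when each array was left out. Between lobes the counts were 5 to 8 on the control diet and 5 to 7 on the high fat diet. Acly reversed between lobes: the control diet gave 0.088 with the mean of probe sets and 0.042 and 0.46 with other probe sets, and the high fat diet gave 0.019 with the mean and 0.11, 0.42 and 0.068 with other probe sets. The sets at 0.11 and 0.068 were above the array median on 0 arrays. The cause of the reversal was not tested. Srebf1 in VP was 0.44 with an offset of 16. Single values below threshold changed sign in 105 cases. Genes passing in VP numbered 130, against 47 with the mean of probe sets or array weights, 209 with the filter at the 75th percentile, 78 with no filter, 83 with 1 variance prior, 21 with 1 weight per lobe and 0 from VP arrays alone. Over the alternatives the genes passing numbered 0 to 6 in DLP (main value 0), 5 to 44 averaged over lobes (14), 0 to 3 for the difference between lobes (1) and 0 to 72 for the link with Srebf1 (35).

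The shared replicate numbers were not taken to pair the samples, since not every pair had a correlation of deviations over 0.1. It was over 0.1 in 4 of 9 pairs with the same diet and number (median 0.0807) and in 3 of 36 with the same diet and different numbers (median -0.0152). With the replicate block, 0 enzyme genes passed for diet in VP, DLP or averaged over lobes, 0 genes were linked with Srebf1, and 7 and 5 differed between lobes on the control and high fat diets. Diet and number as a random block gave 0, 0, 0, 7 and 6.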
